A study of Mus musculus with 10 samples.

Results

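The constitutive regions are the stretches of open chromatin that carried a peak in every one of 8 peak lists from mouse bone marrow haematopoietic stem and progenitor cells (HSPCs). Peaks on chromosomes 1 to 19 and X that shared at least 1 bp were merged across the lists, and a region was chosen by the presence of at least 1 peak in all 8. This rule selected 26169 of 103446 merged regions (25.3%). The lists come from ATAC-seq, in which the transposase Tn5 cuts accessible DNA, on lineage-depleted C57BL/6 marrow. The 4 genotypes had 2 libraries each: wild type (WT), with no mutant allele; Npm1c, labelled Npm1flox-cA/+;Mx1-Cre+; Flt3-ITD, labelled Flt3ITD/+; and the double mutant (DM), labelled Npm1flox-cA/+;Flt3ITD/+;Mx1-Cre+. All 4 Npm1c and DM libraries carry Mx1-Cre, a recombinase under an interferon-inducible promoter, and the other 4 have no Cre in their labels. What is called the Npm1c allele below therefore includes Mx1-Cre. Replicates are numbered in the labels without naming the animals, so each p-value measures only the spread between these libraries. The 2 neutrophil samples of the series were not analysed here.

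NPM1 is a nucleolar chaperone whose leukaemia-associated mutant moves to the cytoplasm, and FLT3 is a receptor kinase of early blood progenitors whose internal tandem duplication signals without ligand. Open chromatin in a cell type falls into promoters, many of which sit in CpG islands and stay open in most tissues, and enhancers, which are more specific to a cell type and its state. CpG-island promoters are bound by general factors of the SP, ETS, NRF1 and YY1 families. Distal sites in blood cells are bound by lineage factors such as RUNX, GATA and AP-1 proteins.

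The promoter sequences below show what kinds of gene start lay within constitutive regions and what kind did not. They are the 250 bases before a start, 5' to 3' in the direction of transcription, from RefSeq on GRCm38.p6, the assembly of mm10. Capitals mark letters that match one of the motifs listed further on, on either strand. Tbp, Rpl10a, Srsf1, Kit and Runx1 are the first genes of 5 lists that met 2 conditions. Their 300-base start window was wholly covered in all 8 lists, and the 250 bases shown held a listed motif. That these 5 hold a motif is therefore set by the choice. Hoxa10, H2-Aa and Alb were added after their values were seen.
Tbp (chr17:15499638-15499887, plus strand): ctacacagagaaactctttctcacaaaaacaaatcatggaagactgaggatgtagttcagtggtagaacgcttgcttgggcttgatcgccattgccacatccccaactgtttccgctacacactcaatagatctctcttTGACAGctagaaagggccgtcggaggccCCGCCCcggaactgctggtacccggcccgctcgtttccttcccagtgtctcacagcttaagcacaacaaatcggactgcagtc
Rpl10a (chr17:28328221-28328470, plus strand): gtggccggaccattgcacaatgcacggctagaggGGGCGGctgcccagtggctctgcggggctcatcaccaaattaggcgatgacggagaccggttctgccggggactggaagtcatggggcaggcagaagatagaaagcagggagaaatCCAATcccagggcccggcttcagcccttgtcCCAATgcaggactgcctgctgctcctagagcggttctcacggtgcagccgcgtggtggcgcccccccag
Srsf1 (chr11:88047123-88047372, plus strand): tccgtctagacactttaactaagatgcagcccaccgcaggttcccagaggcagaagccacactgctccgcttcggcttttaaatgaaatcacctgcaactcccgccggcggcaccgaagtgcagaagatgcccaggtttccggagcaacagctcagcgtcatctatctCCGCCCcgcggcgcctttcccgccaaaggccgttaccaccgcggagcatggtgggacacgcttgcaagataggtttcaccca
Kit (chr5:75574737-75574986, plus strand): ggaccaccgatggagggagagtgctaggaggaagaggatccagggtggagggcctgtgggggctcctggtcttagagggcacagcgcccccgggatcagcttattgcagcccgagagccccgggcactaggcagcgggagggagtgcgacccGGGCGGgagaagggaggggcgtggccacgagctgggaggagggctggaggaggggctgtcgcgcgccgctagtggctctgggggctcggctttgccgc
Runx1 (chr16:92826075-92826324, minus strand): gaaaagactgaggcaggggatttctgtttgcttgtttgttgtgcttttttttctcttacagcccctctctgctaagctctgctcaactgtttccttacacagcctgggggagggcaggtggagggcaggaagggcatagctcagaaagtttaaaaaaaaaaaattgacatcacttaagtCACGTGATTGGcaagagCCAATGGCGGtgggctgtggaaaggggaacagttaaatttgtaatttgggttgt
Hoxa10 (chr6:52234940-52235189, minus strand): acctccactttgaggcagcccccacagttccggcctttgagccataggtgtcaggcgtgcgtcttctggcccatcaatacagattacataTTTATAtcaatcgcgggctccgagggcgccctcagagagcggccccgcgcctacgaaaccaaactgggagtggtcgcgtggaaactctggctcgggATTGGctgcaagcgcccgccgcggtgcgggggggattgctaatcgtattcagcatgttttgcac
H2-Aa (chr17:34287824-34288073, minus strand): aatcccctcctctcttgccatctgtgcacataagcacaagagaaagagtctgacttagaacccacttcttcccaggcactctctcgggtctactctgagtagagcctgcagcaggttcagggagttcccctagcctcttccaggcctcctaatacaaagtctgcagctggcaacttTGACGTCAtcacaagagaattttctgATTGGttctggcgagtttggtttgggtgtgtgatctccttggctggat
Alb (chr5:90460620-90460869, plus strand): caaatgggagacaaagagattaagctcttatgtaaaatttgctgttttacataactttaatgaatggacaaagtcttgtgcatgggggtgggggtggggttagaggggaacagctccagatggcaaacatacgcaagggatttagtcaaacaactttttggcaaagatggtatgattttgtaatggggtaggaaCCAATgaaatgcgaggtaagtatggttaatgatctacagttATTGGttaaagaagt
Tbp (TATA-binding protein), Rpl10a (a ribosomal protein) and Srsf1 (a splicing factor) show the common form, with 17, 21 and 22 CpG dinucleotides in 300 bases. The window of Kit, the stem cell factor receptor, held 20 CpG and a G+C content of 69%. At Runx1, a master transcription factor of blood, the window shown had 2 CpG and 45% G+C, yet it too was covered in full by every list. The Hoxa10 window lay in a constitutive region, but its own 300 bases were covered in full in both Npm1c and both DM libraries and not at all in the WT and Flt3-ITD libraries. H2-Aa encodes an MHC class II chain and had 3 CpG. Alb, the albumin gene of liver, also had 3 CpG and overlapped no region of any list.

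A set of markers checked the labelled cell type. All 8 HSPC markers with a start in the promoter table (Kit, Cd34, Flt3, Meis1, Gata2, Runx1, Myb and Ptprc) had that start in a constitutive region. Of all coding genes 52.3% did. The markers are a small choice: the longer lists below had 10 of 18 stem and progenitor genes and 5 of 14 megakaryocyte genes. Of 17 markers of other blood cells with such a start, 3 did: Klf1 of erythroid cells, and Pf4 and Itga2b of megakaryocytes. None of 6 markers of endothelium, stroma, neurons, liver or muscle did, though 4 of all 9 such markers (Cdh5, Col1a1, Apoa1 and Ckm) had a constitutive region elsewhere at the gene. Ly6g, Cd3e, Bcl11b and Ncr1, markers of neutrophils, T cells and NK cells, had no region at their start in any list, and neither did Pax5 of B cells. Cxcr2, Ly6c2 and Fcer1a had none there either. At their starts Ltf, Camp and Ccr2 had a region of 3 lists, Cd8a and Alas2 of 2 and Mcpt8 of 4. Of all 21 markers of other blood cells, 8 had a constitutive region at the start or elsewhere at the gene. The HSPC marker Ly6a, without a start in the promoter table, had 2 regions, none of them constitutive. Lineage depletion leaves progenitors of several lineages, and the peak lists cannot assign a region to 1 of them.

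The 8 lists held between 43825 (Flt3-ITD replicate 1) and 80916 peaks (WT replicate 1), and no source used here gives their read numbers. Peaks in constitutive regions made up 57.6% of the covered length in WT replicate 1, the longest list, and 81.0% in Flt3-ITD replicate 1, the shortest. The other 6 libraries lay between 61.1% and 74.0%. The mean share was 72.2% ± 7.15 (SD, n = 4) with the Flt3-ITD allele and 61.8% ± 3.19 (n = 4) without it. The ranges overlapped and the difference did not pass (exact permutation test, two-sided p = 0.0857, adjusted p = 0.171 over 14 library comparisons). List length and the Flt3-ITD allele cannot be told apart by this measure.

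Constitutive regions were the largest class by number of lists, and they differed in kind from the rest. Regions of 1 list numbered 19140 and regions of 7 lists 5132. A gene start, taken as the window from 250 bases before to 50 bases after an annotated start, touched 2.11% of regions of 1 list, 2.92% of those of 4, 7.40% of those of 7 and 35.9% of constitutive regions (9125 of 25409; chromosome 18 is not in the promoter table). The step from 7 to 8 lists was thus larger than all steps before it. The median distance from a region's midpoint to the nearest start fell from 17180 bp for 1 list and 14623 bp for 7 to 5385 bp for 8. Where a region was called, peaks covered a median of 247 bp in regions of 1 list, 378 bp in regions of 7 and 694 bp in constitutive regions. Width is part of how a region comes to be in all lists, so these values are a description and were not tested.

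**Figure D1:**
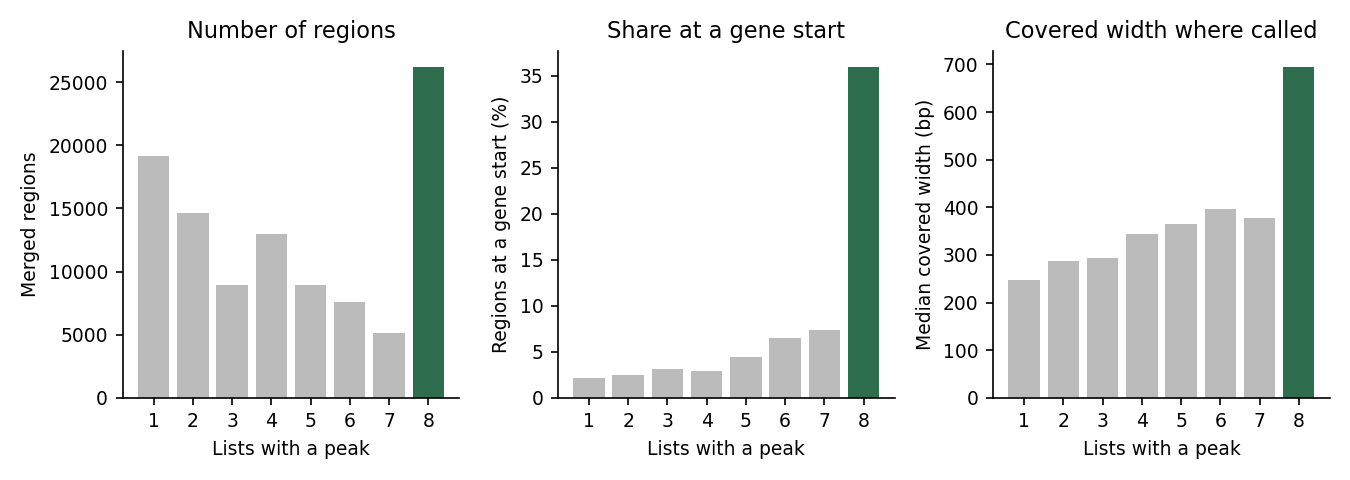
Merged regions by the number of peak lists (1 to 8) that hold them: their number, the share that overlaps a gene start (percent, without chromosome 18), and the median bp covered by peaks in the libraries where they are called. Constitutive regions, in green, number 26169, and 35.9% of them lie at a gene start against 7.40% of the regions of 7 lists.

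By position, 9125 of the 25409 constitutive regions outside chromosome 18 overlapped a start window, 9188 others had their midpoint inside a gene, 6467 lay outside genes within 100 kb of a gene end and 629 (2.48%) lay farther away. Among regions of 1 to 7 lists the start windows took 3.48%, gene interiors 55.7% and places beyond 100 kb 5.89%. Starts of 2 or more genes fell in 1673 constitutive regions, 1301 of which held a divergent pair. Every chromosome contributed, from 22.5% of the regions of X and 23.2% of those of chromosome 13 to 28.5% of those of chromosome 7. A start missing from the promoter table counts here as elsewhere. Genes here are the protein-coding genes and those of the gene lists. A region counted as outside genes may therefore lie in another noncoding gene.

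The regions agreed on a core. Their spans add up to 32.2 Mb, and 15.8 Mb of that (49.3%) was covered by all 8 lists, with a median core of 427 bp. The core was longer at gene starts (median 817 bp) than elsewhere (328 bp). In 19298 regions (73.7%) every list had exactly 1 peak. In 125 regions no base was shared by all 8, because different lists covered different parts of one merged stretch. Region widths ran from 322 to 12719 bp with a median of 1000 bp.

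Several libraries set the rule's edge. Of the 5132 regions that missed 1 list, 1299 missed Flt3-ITD replicate 1, 1098 WT replicate 2, 807 Npm1c replicate 1, 739 DM replicate 2, 509 DM replicate 1, 359 Npm1c replicate 2 and 321 Flt3-ITD replicate 2, and none missed WT replicate 1. The widest of these regions lay at a start window 52756 bp from Phc1 (626 to 4641 bp in the other 7 lists, no peak in DM replicate 2), 947 bp from Mpo (the myeloperoxidase gene, 428 to 4148 bp, none in Npm1c replicate 2) and near Sh2d4a (333 to 2832 bp, none in DM replicate 1). Others were at Ryr1 (none in WT replicate 2), near Cxxc5 (none in Npm1c replicate 1), near Lratd2 (none in Flt3-ITD replicate 1) and at Dapp1 (none in Flt3-ITD replicate 2). Just inside the edge, 1375 constitutive regions (5.25%) had at most 250 bp in Flt3-ITD replicate 1, where no peak can be narrower than 200 bp, and 8 (0.0306%) did in WT replicate 1.

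Many mouse genes had a constitutive start. Of 17273 coding genes with a start window, 9029 (52.3%) overlapped a constitutive region, 1562 (9.04%) only a region of 1 to 7 lists and 6682 (38.7%) none. Of genes with any region at the start, 85.3% had a constitutive one. A start window in a constitutive region need not be covered in every list, as the Hoxa10 window above shows. A start window and the gene to which a region is assigned by its midpoint can differ, so Rpl4, for example, has a constitutive start but no region assigned to it.

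The genes of basic cell machinery had constitutive starts without exception among the genes measured. This held for 16 of 16 housekeeping genes (Gapdh, Tbp, Hprt and Pgk1 among them), 27 of 27 cytosolic ribosomal protein genes, 24 of 24 proteasome subunits, 22 of 22 genes of RNA polymerase II and general transcription, 24 of 24 splicing factors and 17 of 17 genes of the mitochondrial respiratory chain. JAK-STAT and FLT3 signalling, the pathway downstream of the mutated receptor, also had 27 of 27, including Jak2, Stat5a, Stat5b, Socs1, Socs3, Cish and Pim1. Chromatin regulators had 26 of 27, where the start of Tet1, a DNA demethylase, lay in a region of fewer lists. AP-1 and immediate early genes had 18 of 19 (not Jund), heat shock chaperones 16 of 17 (not Hspb1) and DNA replication and cell cycle genes 23 of 25 (not Tyms and Cdk6). These shares stand beside 52.3% of all coding genes.

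The blood gene lists differed, from 80% of transcription factors to 11.8% of T and NK genes, beside 52.3% of all coding genes. Stem and progenitor genes (55.6%) and HOX genes and cofactors (46.7%) lay near that share. Haematopoietic transcription factors had a constitutive start in 20 of 25 cases, including Runx1, Gata2, Tal1, Lyl1, Etv6, Myb, Cebpa and Gfi1; Gata1, Erg and Mecom had one in fewer lists, and Ebf1 and Pax5, factors of B cells, had none. Stem and progenitor genes had 10 of 18, with Procr, Slamf1, Tek, Cd27, Mecom, Il7r and Fcgr3 in regions of 1 to 7 lists. HOX genes and cofactors had 7 of 15: Hoxa3, Hoxa7, Hoxa9, Hoxa10, Hoxb4, Meis1 and Pbx2. Dendritic genes had 6 of 14, megakaryocyte genes 5 of 14, erythroid genes 6 of 17, monocyte genes 4 of 14, neutrophil genes 4 of 17 (Mpo, Ctsg, Mmp8 and Csf3r), mast cell and basophil genes 3 of 13, B lymphoid genes 2 of 14 and T and NK genes 2 of 17. Interferon response genes had 13 of 18, with the starts of Ifit1, Isg15 and Ifi44 in fewer lists.

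Of the lists of other tissues, those of endothelium and muscle had no constitutive start. None of 14 endothelial and stromal genes and none of 17 muscle genes had a constitutive start, and 2 of 14 hepatocyte genes did (Apoa2 and Ass1). Neuronal genes had 5 of 15: Syn1, Tubb3, Grin1, Map2 and Eno2. Their share of 33.3% lay near that of erythroid genes (35.3%) and above those of monocyte (28.6%) and neutrophil genes (23.5%). The genes of a list were chosen for their function and no list was tested.

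**Figure D2:**
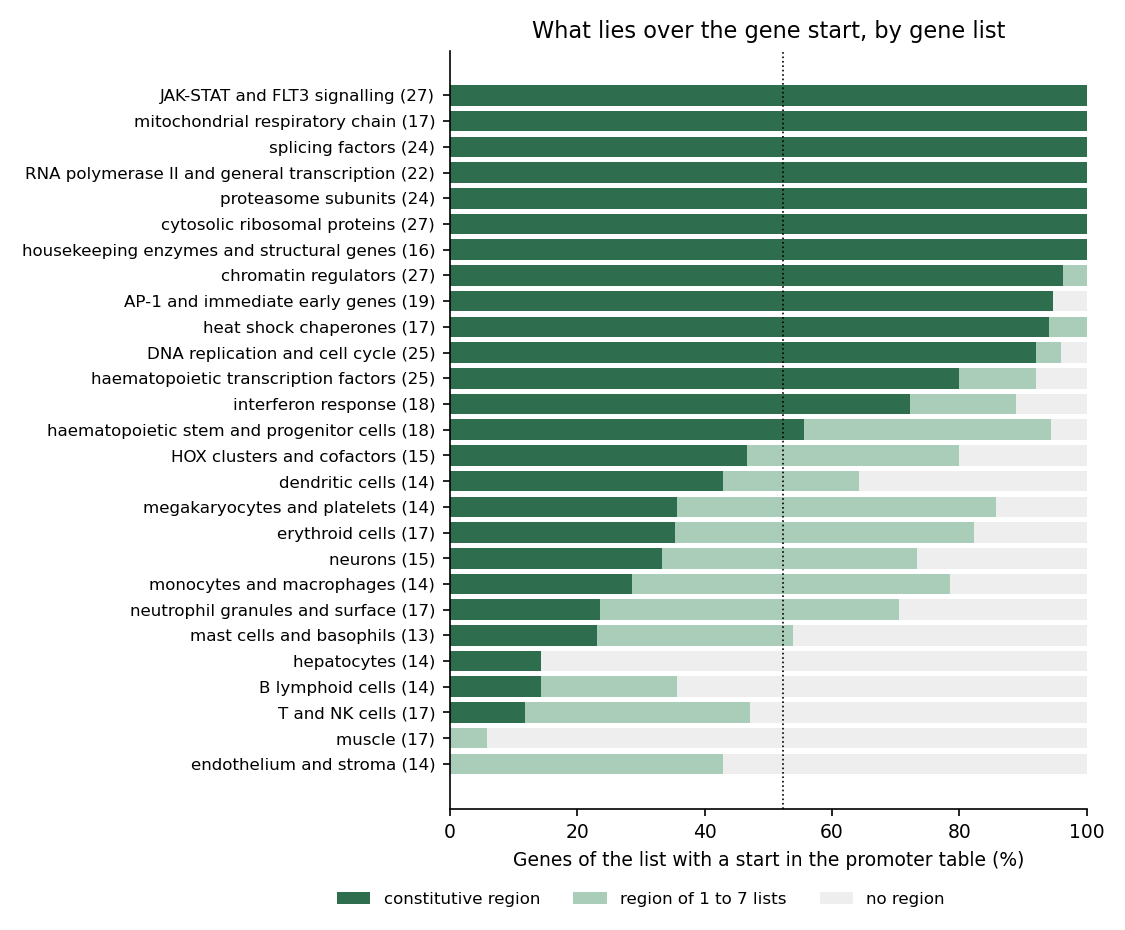
For each of 27 gene lists, the share of its genes (percent; number with a start in the promoter table in parentheses) whose start lay in a constitutive region, in a region of 1 to 7 lists, or in none. The dotted line marks 52.3%, the share of all coding genes with a constitutive start; 7 lists reach 100% and the muscle and endothelium lists stand at 0.

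Constitutive starts were rich in CpG. The median 300-base window held 22 CpG and 62.0% G+C in constitutive regions (10660 windows), 12 CpG and 58.3% in regions of 1 to 7 lists (1943) and 3 CpG and 48.3% where no region lay (8416). The observed CpG count was 0.796, 0.521 and 0.211 of that predicted from the C and G content. Among windows with 0 to 2 CpG, 3.18% were constitutive, and the share climbed to 12.5% at 3 to 5, 32.4% at 6 to 10, 66.2% at 11 to 15, 78.9% at 16 to 20 and 84.4% at 21 or more. Of all constitutive windows 89.0% held 10 or more CpG and 1.11% held 2 or fewer, the group to which the Runx1 window printed above belongs.

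Motifs of general promoter factors were found more often in constitutive windows. Each was searched by its exact letters on both strands, and overlapping motifs were counted separately. The GC box of SP1 and KLF factors (GGGCGG) occurred in 69.1% of constitutive windows, 17.2% of windows with no region and 46.6% of all. The ETS motif CCGGAAGT occurred in 9.32%, 0.796% and 5.20% of these windows, the YY1 motif ATGGCGG in 9.05%, 1.24% and 5.29%, and the NRF1 motif GCATGCGC in 5.95%, 0.998% and 3.54%. The CREB and ATF motif TGACGTCA followed (3.51%, 0.867%, 2.26%), as did the E-box CACGTG (10.9%, 4.33%, 7.91%) and the ZNF143 motif ACTACAA (4.50%, 2.97%, 3.64%).

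In the other direction, the TATA box (TATAAA) occurred in 5.83% of constitutive windows, 22.0% of windows with no region and 12.7% of all. AP-1 letters (TGANTCA) occurred in 4.0%, 10.7% and 7.04%, GATA letters (AGATAAG) in 1.5%, 3.81% and 2.63%, RUNX letters (TGTGGT) in 11.7%, 18.4% and 14.7% and HOX and MEIS letters (TGACAG) in 16.3%, 20.9% and 18.3%. The CCAAT box (CCAAT) at 38.3%, 40.1% and 38.5%, and the PU.1 letters GAGGAAGT at 3.11%, 3.28% and 3.15%, differed least. A motif with a CG in it is likelier in a CpG-rich window, and this part of the difference was not tested. A match is a description of the letters and does not show binding.

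Constitutive regions were narrower in the libraries with the Flt3-ITD allele. Mean covered width per region was 1104 and 976 bp in the WT libraries, 972 and 1008 bp in Npm1c, 750 and 841 bp in Flt3-ITD, and 802 and 829 bp in DM. All 4 libraries with the allele lay below all 4 without it. The means were 805 ± 40.5 bp (SD, n = 4) with the allele and 1015 ± 61.6 bp (n = 4) without it, a ratio of 79.4% (exact permutation test, two-sided p = 0.0286, the smallest that 4 against 4 can give, adjusted p = 0.08 over 14 comparisons). The Npm1c allele gave 903 ± 102 bp against 918 ± 155 bp, with overlapping ranges (exact permutation p = 0.829, adjusted p = 0.892, n = 4 each). A narrower peak in a bulk library can mean fewer cells with the site open, less open chromatin in each, or fewer reads. These cannot be told apart, and the read numbers are not given.

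The narrowing was largest at gene starts in bp. There, peaks covered 1583 and 1458 bp in WT, 1455 and 1490 bp in Npm1c, 1084 and 1222 bp in Flt3-ITD and 1097 and 1122 bp in DM. Elsewhere they covered 848 and 718 bp in WT, 714 and 749 bp in Npm1c, 571 and 636 bp in Flt3-ITD and 643 and 672 bp in DM. With the Flt3-ITD allele the mean at starts was 75.6% of that without it, and elsewhere 83.3% (exact permutation p = 0.0286 and adjusted p = 0.08 each, n = 4 against 4). The ratio of starts to elsewhere was 1.80 ± 0.130 with the allele and 1.98 ± 0.0791 without it, with overlapping ranges (exact permutation p = 0.0857, adjusted p = 0.171, n = 4 each), so a difference between the positions did not pass. The DM libraries had the lowest ratios, 1.71 and 1.67.

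**Figure D3:**
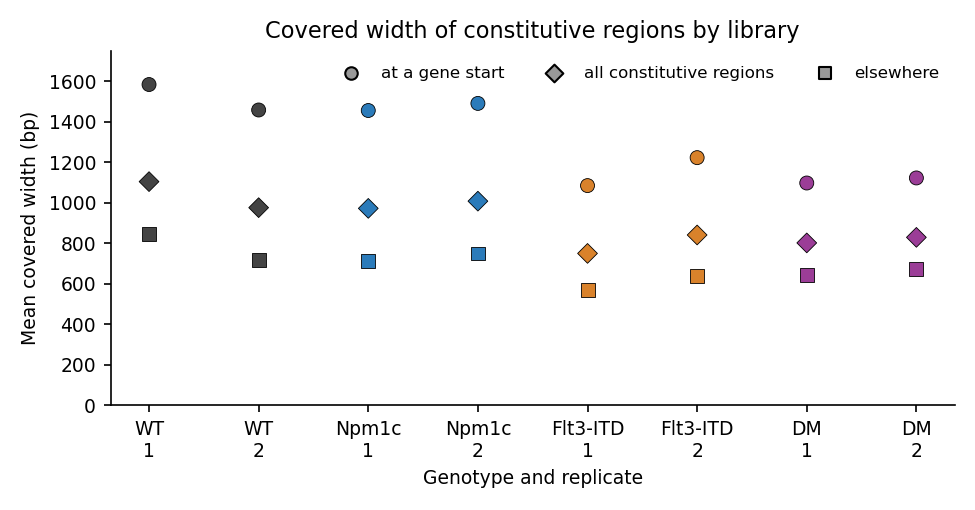
Mean bp covered by peaks per constitutive region in each of the 8 libraries, at gene starts (circles), in all regions (diamonds) and elsewhere (squares), coloured by genotype. For all regions the 4 libraries with the Flt3-ITD allele lie between 750 and 841 bp and the 4 without it between 972 and 1104 bp.

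Around the gene start itself, peaks were shorter on both sides. At 9896 starts covered in all 8 lists, they reached on average 733 and 671 bp upstream in WT, 680 and 694 bp in Npm1c, 508 and 564 bp in Flt3-ITD and 514 and 529 bp in DM. Downstream they reached 889.98 and 806 bp in WT, 801 and 822 bp in Npm1c, 562 and 650 bp in Flt3-ITD and 561 and 572 bp in DM. The upstream mean was 529 ± 25.3 bp with the Flt3-ITD allele and 695 ± 27.4 bp without it, and the downstream mean 586 ± 42.7 bp and 830 ± 41.2 bp (exact permutation p = 0.0286, adjusted p = 0.08 for both, n = 4 against 4). At 500 bp downstream a peak covered 80.9% and 75.8% of starts in the WT libraries, 66.7% and 68.1% with Npm1c alone, 49.2% and 59.4% with Flt3-ITD alone, and 48.4% and 50.3% with both.

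**Figure D4:**
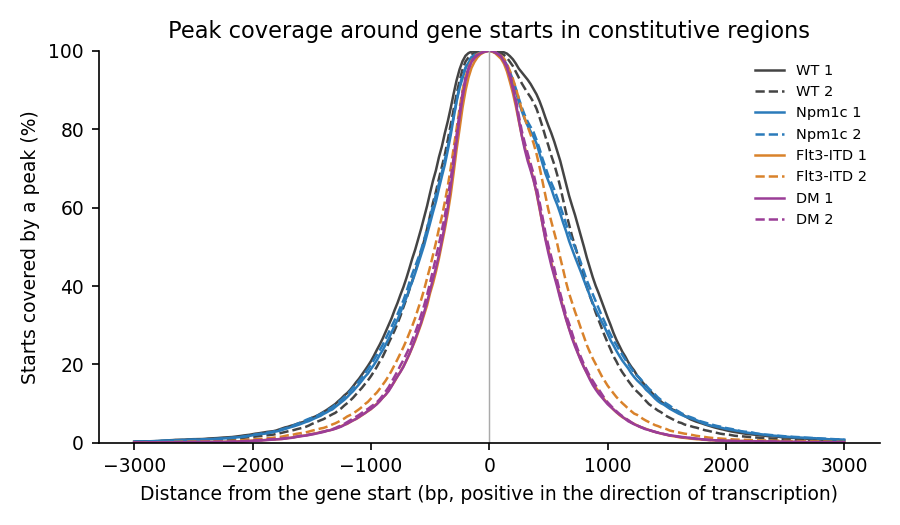
Share of the 9896 gene starts covered in all 8 lists (percent) that a peak spans, by distance from the start in bp with transcription to the right, 1 line per library (replicate 1 solid, replicate 2 dashed). The Flt3-ITD and DM lines fall faster on both sides; at 500 bp downstream they stand between 48.4% and 59.4%, and the WT and Npm1c lines between 66.7% and 80.9%.

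Single regions were then tested with limma on log2 of covered bp plus 100 bp, with each library divided by its median ratio over the constitutive regions. A change is therefore relative to the typical constitutive region, and a region with the same bp in all libraries reads as wider with the Flt3-ITD allele. The fit covered all 103446 regions, of which 15.0% were called wider and 31.2% narrower with that allele at an adjusted p under 0.05. Of the 26169 constitutive regions 5391 (20.6%) were wider and 5849 (22.4%) narrower. With no scaling the same regions gave 1198 wider and 10875 narrower, and with common quantiles 6452 and 5094, so the counts in both directions depend on the scaling. All 5849 narrower calls held with no scaling and 1198 of the wider ones did. Over the 6 other settings of the fit, common quantiles among them, 4391 of the narrower and 3853 of the wider calls held throughout. A constitutive region cannot go to 0, so its share of calls and that of all regions are not alike in kind. The median log2 difference was 0.01 in constitutive regions and -0.32 in all regions.

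Narrower calls were more frequent at gene starts and in wide regions. At gene starts 1285 of 9125 regions (14.1%) were wider and 2971 (32.6%) narrower with the Flt3-ITD allele, and elsewhere 3970 of 16284 (24.4%) and 2686 (16.5%). With common quantiles gene starts had 2227 wider and 2226 narrower, and with no scaling 210 and 5500. With the regions in 5 equal groups by mean width, 6.03% were narrower in the lowest group (255 to 422 bp) and 38.2% in the highest (1317 to 9351 bp). Peaks have a floor of 200 bp, so a narrow region can lose little.

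The regions that lost most width with the Flt3-ITD allele kept only a small stretch of peak. At Rabggtb (a Rab geranylgeranyl transferase subunit, chr3:153909520-153914459, at its start) peaks covered 4423 and 3957 bp in WT and 4705 and 4844 bp in Npm1c, but 837 and 1026 bp in Flt3-ITD and 745 and 786 bp in DM. The log2 difference was -2.03 ± 0.03 (SE; limma, adjusted p = 1.87e-05). At the start of Mpped2 the widths were 2465, 2334, 2507 and 2642 bp without the allele and 357, 478, 325 and 431 bp with it (-2.16 ± 0.09, limma adjusted p = 3.06e-05). At Plscr2, a phospholipid scramblase, they were 2191, 2111, 3151 and 3067 bp against 388, 812, 389 and 215 bp (-2.16 ± 0.24, limma adjusted p = 0.00101). In none of these 3 did the groups overlap. The other 7 of the leading 10, at or near Shc4, Slc16a7, Hmcn1, Mmp27, Wwox, Zfp949 and Plcb4, had log2 differences from -2.01 to -1.93.

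The regions that widened most with the allele were narrow in the Npm1c libraries and widest in DM. At Fgd2, a guanine exchange factor of CDC42 (chr17:29360602-29362672, at its start), peaks covered 1079 and 804 bp in WT, 336 and 292 bp in Npm1c, 1437 and 1230 bp in Flt3-ITD and 1964 and 1956 bp in DM (log2 difference 1.62 ± 0.11, limma adjusted p = 0.000159). A region 1268 bp from Pim1, a kinase induced by STAT5 (chr17:29496118-29498640), had 616 and 451 bp in WT, 294 and 350 bp in Npm1c, 937 and 588 bp in Flt3-ITD and 2346 and 2427 bp in DM (1.72 ± 0.18, limma adjusted p = 0.000785). In this region the lower Flt3-ITD library overlapped the WT range, and the DM libraries stood far above all others. Inside Cdh23, a cadherin, the widths were 518 and 438 bp in WT, 354 and 326 bp in Npm1c, 753 and 730 bp in Flt3-ITD and 1404 and 1863 bp in DM (1.47 ± 0.10, limma adjusted p = 0.000166). The other 7 had log2 differences from 1.46 to 1.80. They lay at or near Enpp6, Zfp469, Mrvi1, Lasp1, Tnrc18 and Abr and at chr8:88913624-88915184, with no protein-coding or listed gene within 100 kb. Several overlapped between the groups through WT replicate 1, as at Tnrc18, where it had 2335 bp and the Flt3-ITD libraries 2281 and 2188 bp.

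The Npm1c allele moved fewer single regions. Of the constitutive regions 1966 (7.51%) were wider and 2151 (8.22%) narrower, beside 12.2% and 9.69% of all regions. With no scaling the counts were 1033 and 1870, and without WT replicate 1, the longest list, 3098 and 2065.

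The clearest widening was in the Hoxa cluster, whose genes are active in stem cells and persist in NPM1-mutant leukaemia. The region over the Hoxa10 start (chr6:52233328-52235342) had 594 and 346 bp in WT and 436 and 574 bp in Flt3-ITD, but 1837 and 1965 bp in Npm1c and 1653 and 1785 bp in DM. The groups with and without the allele did not overlap, and the fitted width was 3.33 times higher (log2 1.74 ± 0.12, limma adjusted p = 0.000782). This is the region whose promoter window, printed above, was covered in full with the allele and bare without it. The region over the Hoxa9 start had 1341 and 801 bp in WT, 1866 and 2248 bp in Npm1c, 968 and 1040 bp in Flt3-ITD and 1819 and 1934 bp in DM (log2 0.90, limma adjusted p = 0.00476). That over the Hoxa3 start had 1776, 1548, 1391 and 1708 bp without the allele and 2517, 2585, 2063 and 2379 bp with it (log2 0.56, limma adjusted p = 0.000996). These Hoxa regions sit close together on 1 chromosome and are not independent.

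In the whole HOX list 7 of 25 constitutive regions were wider with the Npm1c allele and 1 narrower (median log2 0.23, beside 0.01 in all constitutive regions), with 6 and 2 under no scaling and 5 and 2 with common quantiles. Beside the Hoxa regions, that over the start of Meis1, a HOX cofactor, was wider (log2 0.30, limma adjusted p = 0.00249). The region over the start of Pbx2, another cofactor, was narrower, with 2175 and 1966 bp in WT, 508 and 747 bp in Npm1c, 1688 and 1718 bp in Flt3-ITD and 875 and 753 bp in DM (log2 -1.27, limma adjusted p = 0.00113).

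Other regions widened by the Npm1c allele were near Hspa1b, a stress-induced HSP70 chaperone (chr17:34954906-34956891), with 327 and 322 bp in WT, 1986 and 1399 bp in Npm1c, 202 and 303 bp in Flt3-ITD and 529 and 1777 bp in DM (log2 1.87 ± 0.37, limma adjusted p = 0.0199). The DM libraries disagreed there by more than those of any other genotype, and Hspa1b has a near-identical neighbour, Hspa1a, so reads of the 2 copies may be shared. The region near Gcg had 1734, 1661, 1208 and 1404 bp with the allele and 701, 409, 383 and 339 bp without it (1.57 ± 0.13, limma adjusted p = 0.001). In Otogl the values were 822, 875, 832 and 778 bp against 420, 304, 295 and 275 bp (1.16 ± 0.08, limma adjusted p = 0.000796). Others, in App, Cers6 and Gpatch2 and at chr3:149393253-149394196 without a protein-coding or listed gene within 100 kb, had log2 differences from 1.10 to 1.26. At the start of Arl6ip5 (1.15) the Npm1c libraries, with 1954 and 2176 bp, overlapped WT, with 2115 and 1650 bp. The Flt3-ITD libraries had 231 and 234 bp there and the DM libraries 1115 and 1565 bp (interaction 1.81, limma adjusted p = 0.00249).

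Among the regions that narrowed most with the Npm1c allele was one inside Pak4, a p21-activated kinase (chr7:28575462-28577384). It had 1923 and 1799 bp in WT, 710 and 924 bp in Npm1c, 1274 and 1600 bp in Flt3-ITD and 308 and 376 bp in DM (log2 -1.43 ± 0.09, limma adjusted p = 0.000767), and the groups with and without the allele did not overlap. Of the 10 regions with the largest narrowing, 2 lay inside Zfpm1, the GATA1 cofactor of erythroid and megakaryocyte cells. The one at chr8:122329215-122331636 had 2239, 1997, 1816 and 2270 bp without the allele and 1047, 1118, 499 and 490 bp with it (-1.36 ± 0.05, limma adjusted p = 0.000594). Others lay at or near Midn, Cxxc5, Macrod1, Wapl, Hjurp and Septin8, from -1.61 to -1.35. At the last 3 the loss was mainly in DM, with interaction terms of -3.04 (Wapl), -3.24 (Hjurp) and -2.49 (Septin8). Npm1c libraries had 2472 and 2439 bp at Wapl beside 2443 and 2364 bp in WT. At Hjurp they had 10728 and 11533 bp beside 10272 and 9820 bp in WT.

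**Figure D5:**
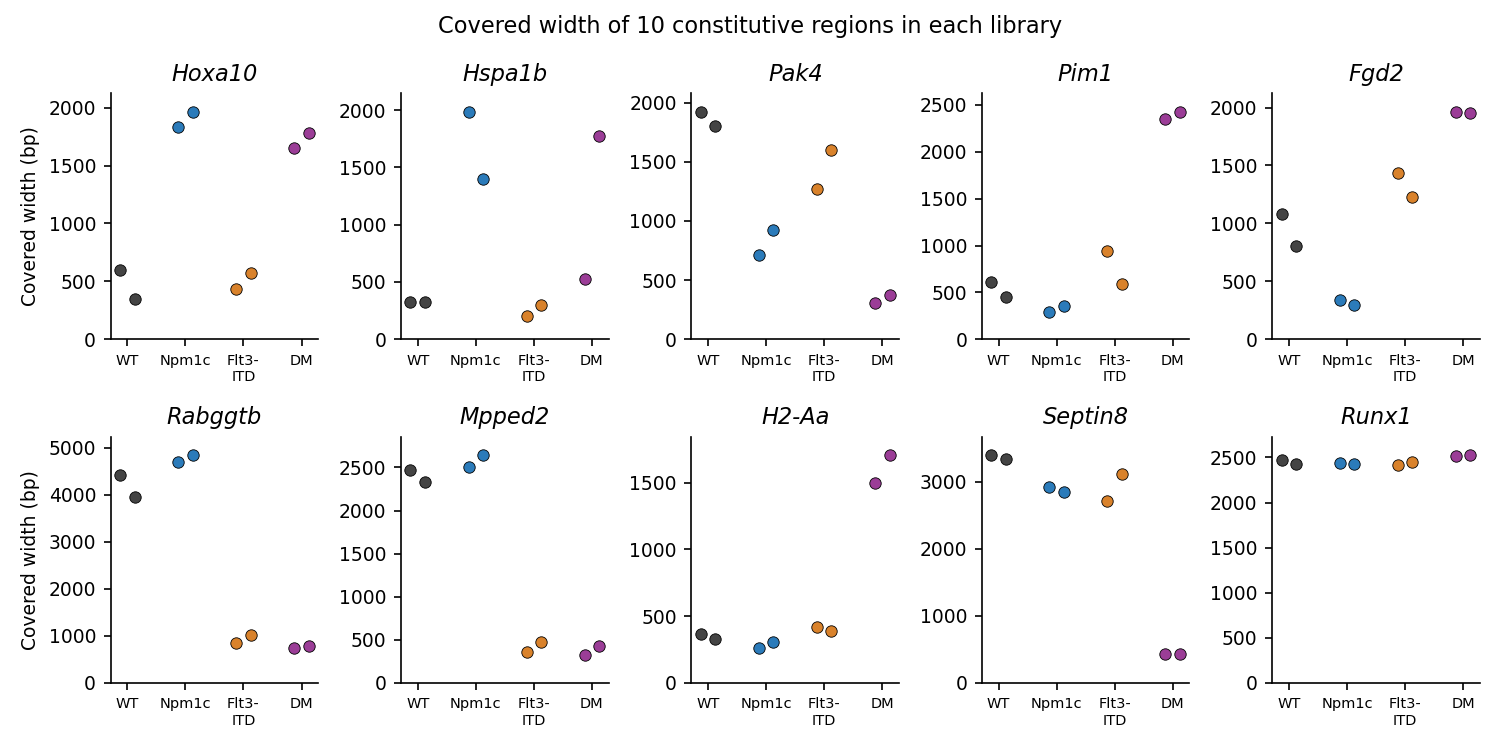
Bp covered by peaks in 10 constitutive regions, named by gene, in each library (points; each panel has its own axis from 0). Hoxa10 and Hspa1b are wide with the Npm1c allele, Pak4 narrow with it, Fgd2 and Pim1 widest in DM, Rabggtb and Mpped2 narrow with the Flt3-ITD allele, H2-Aa wide and Septin8 narrow in DM, and Runx1 between 2413 and 2525 bp in all 8.

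The interaction term asks whether the width in DM departs from what the 2 alleles give separately. It was positive in 930 constitutive regions (3.55%) and negative in 1990 (7.60%), beside 12.6% and 7.85% of all regions. With no scaling the counts were 1223 and 713 and with common quantiles 1094 and 1322, so the balance of the signs depends on the scaling, and without WT replicate 2 the total rose from 2920 to 4542. The negative calls gathered in wide regions (22.1% of the widest of the 5 groups, 0.229% of the narrowest) and at gene starts (13.4% against 4.41% elsewhere).

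In all 5 regions with the strongest negative term both DM libraries lay below the other 6. A region over Hjurp, a histone chaperone of centromeres (chr1:88254090-88266808, the longest of all constitutive regions), had 10272 and 9820 bp in WT, 10728 and 11533 bp in Npm1c, 10667 and 11083 bp in Flt3-ITD and 1642 and 1152 bp in DM (log2 interaction -3.24 ± 0.24, limma adjusted p = 0.000878). At the start of Septin8, a septin, the widths were 3394 and 3344 bp in WT, 2913 and 2851 bp in Npm1c, 2717 and 3112 bp in Flt3-ITD and 429 bp in each DM library (-2.49 ± 0.09, limma adjusted p = 0.000855). Near Wapl, the cohesin release factor, they were 2443 and 2364 bp, 2472 and 2439 bp, 2116 and 2357 bp, and 271 and 200 bp in the same order (-3.04 ± 0.17, limma adjusted p = 0.000855). Smim1 had a term of -2.59. At Tbc1d2b (-2.38) the Flt3-ITD libraries were narrow too, with 923 and 1316 bp beside 2437 and 2287 bp in WT, 3081 and 3178 bp in Npm1c and 266 and 229 bp in DM.

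Positive terms had several forms. H1f10, a linker histone gene, was narrow at its start in Npm1c alone, with 2097 and 1909 bp in WT, 232 and 334 bp in Npm1c, 1318 and 1745 bp in Flt3-ITD and 1515 and 1868 bp in DM (log2 2.41 ± 0.22, limma adjusted p = 0.0012). Batf3, a transcription factor of dendritic cells, had a region near its gene and over a start window with 1443 and 1410 bp in WT, 846 and 779 bp in Npm1c, 415 and 332 bp in Flt3-ITD, and 1240 and 1359 bp in DM (2.15 ± 0.20, limma adjusted p = 0.00129). There the WT and DM libraries stood together above both single mutants. Plppr3, Celsr1 and Pknox2 had terms of 2.39, 2.39 and 2.31. At the start of H2-Aa, named for its high variation, the widths were 365 and 329 bp in WT, 261 and 306 bp in Npm1c, 421 and 390 bp in Flt3-ITD and 1499 and 1707 bp in DM (1.83 ± 0.15, limma adjusted p = 0.000997).

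Grouped by gene list, erythroid and proteasome genes had more narrower than wider regions with the Flt3-ITD allele, as did constitutive regions at gene starts as a whole (32.6% narrower and 14.1% wider). So did the lists of T and NK cells (7 narrower and 4 wider of 19), RNA polymerase II (10 and 4 of 29) and the mitochondrial respiratory chain (13 and 7 of 40), and none of these lists was tested against other regions. Of 41 constitutive regions of erythroid genes 16 were narrower and 6 wider (median log2 -0.17; 25 and 1 with no scaling, 17 and 7 with common quantiles), beside 22.4% and 20.6% of all constitutive regions. The start of Tal1, a blood master regulator, had 4432 and 4456 bp in WT, 4992 and 4889 bp in Npm1c, 2230 and 2898 bp in Flt3-ITD and 1211 and 1189 bp in DM (log2 -1.12, limma adjusted p = 0.000132). A region of Rhag, a red cell membrane protein, went from 807, 1024, 1208 and 1068 bp to 200, 282, 239 and 243 bp (-1.51, limma adjusted p = 0.000464). The start of Klf1, the erythroid Krueppel-like factor, was narrow mainly in DM, with 2896 and 2771 bp in WT, 2270 and 2426 bp in Npm1c, 2190 and 2860 bp in Flt3-ITD and 823 and 956 bp in DM (interaction -1.33, limma adjusted p = 0.00159). Of 44 proteasome regions 19 were narrower and 2 wider (35 and 0 with no scaling, 14 and 4 with common quantiles), among them 1 at Psmd7 (-1.09, limma adjusted p = 0.000327) and the start of Psmc2 (-0.81, limma adjusted p = 0.00106).

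Wider calls with the Flt3-ITD allele outnumbered narrower ones in myeloid and immediate early genes, and likewise in several other lists. Beside 20.6% of all constitutive regions, 12 of 24 regions of endothelium and stroma were wider (2 narrower), 7 of 15 of neurons (2 narrower) and 6 of 13 of B lymphoid cells (1 narrower). Under the scaling used the excess was thus not limited to myeloid genes. With no scaling, endothelium and stroma had 2 wider and 5 narrower, neurons 2 and 3, and B lymphoid cells 0 and 1. Of 70 regions of AP-1 and immediate early genes 31 were wider and 5 narrower (median log2 0.19), but with no scaling 10 were wider and 14 narrower. The region over Fos and its start had 6965 and 6177 bp in WT, 6829 and 7005 bp in Npm1c, 5660 and 5971 bp in Flt3-ITD and 5517 and 5416 bp in DM (scaled log2 0.00, limma adjusted p = 0.967). Of 38 monocyte and macrophage regions 17 were wider and 3 narrower, and 5 and 6 with no scaling; of 18 neutrophil regions 7 and 0, and 3 and 3. At Irf8, the factor of monocyte and dendritic fate, 1 region had 771 and 413 bp in WT, 261 and 284 bp in Npm1c, 683 and 898 bp in Flt3-ITD and 1099 and 1103 bp in DM (1.27, limma adjusted p = 0.00138). The start of Mpo had 863 and 793 bp, 520 and 679 bp, 959 and 964 bp, and 1134 and 1005 bp in the same order (0.70, limma adjusted p = 0.00191). JAK-STAT and FLT3 genes had 28 wider and 20 narrower of 100, and 9 and 34 with no scaling, so their direction turns with the scaling.

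With the Npm1c allele, megakaryocyte genes had more narrower than wider regions, and stem cell and dendritic genes more wider than narrower ones. Of all constitutive regions 7.51% were wider and 8.22% narrower, and 3.95% and 7.15% with no scaling. Of 51 megakaryocyte regions 15 were narrower and 4 wider (13 and 0 with no scaling), 6 of the 15 inside or at Zfpm1. The start of Gp5, a platelet glycoprotein, had 3084 and 2686 bp in WT, 2563 and 2669 bp in Npm1c, 1662 and 2413 bp in Flt3-ITD and 579 and 504 bp in DM (log2 -0.91, limma adjusted p = 0.00186; interaction -1.78, limma adjusted p = 0.00206), so only DM stood clearly below WT. Of 58 stem and progenitor regions 12 were wider and 4 narrower (8 and 4 with no scaling), among them a region near Cd34 with 466 and 416 bp in WT, 1125 and 1217 bp in Npm1c, 322 and 302 bp in Flt3-ITD and 474 and 460 bp in DM (0.86, limma adjusted p = 0.000814; interaction -0.91, limma adjusted p = 0.00525). There the DM libraries lay beside WT. Of 51 dendritic regions 10 were wider and none narrower (4 and 0 with no scaling, 7 and 1 with common quantiles). Narrower calls also outnumbered wider ones in erythroid cells (7 and 1 of 41), neurons (3 and 0 of 15) and hepatocytes (3 and 0 of 7). Genes can belong to several lists, as Flt3 does to 3, and the parts that shifts in cell makeup take in these counts were not tested.

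The mutated genes were looked at in every library, though peak positions cannot read the alleles. The constitutive region with its midpoint inside Npm1 (chr11:33161942-33163746) had 1747 and 1645 bp in WT, 1681 and 1805 bp in Npm1c, 1471 and 1520 bp in Flt3-ITD and 1447 and 1456 bp in DM. Neither allele passed (limma adjusted p = 0.725 for Npm1c and 0.432 for Flt3-ITD). Npm1 has no start in the promoter table, so whether this region holds its start was not assessed. Flt3 held 7 constitutive regions among 18. The one over its start (chr5:147399369-147401254) had 1004 and 784 bp in WT, 652 and 642 bp in Npm1c, 741 and 753 bp in Flt3-ITD, and 1627 and 1886 bp in DM (interaction 1.36 ± 0.13, limma adjusted p = 0.00131). The start of Kit, a related receptor, had 5900 and 4022 bp in WT, 4058 and 4965 bp in Npm1c, 1575 and 2115 bp in Flt3-ITD and 1217 and 1342 bp in DM (log2 with the Flt3-ITD allele -1.30, limma adjusted p = 0.000459). Mx1, the interferon-induced gene that gives Mx1-Cre its promoter, had 4 regions, none of them constitutive.

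The widest constitutive regions by mean covered bp marked immediate early and stress genes: Fosb, Klf6, Fos, Jun and Junb, all transcription factors, with Tgif1, Zfpm1, the apoptosis gene Bbc3, Hjurp and a region 6861 bp from Frmd8. The last (chr19:5838506-5849720) had 11188 and 10084 bp in WT, 7765 and 7531 bp in Npm1c, 9855 and 9649 bp in Flt3-ITD and 9042 and 9692 bp in DM. Frmd8 is its nearest protein-coding or listed gene, and other noncoding genes were not considered. Bbc3 was the steadiest of the 10, between 5726 and 6218 bp in the 8 libraries. Klf6 was among the least steady, with 8824 and 5425 bp in WT, 9657 and 10852 bp in Npm1c, 3360 and 3858 bp in Flt3-ITD and 4646 and 4843 bp in DM.

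Within the lists, the genes with most constitutive regions were often regulators. Etv6 held 15, Runx1 13, Erg 12 and Cebpb and Ikzf1 11 each among the transcription factors, of which only Gata1 had none. Cyclin D3 (Ccnd3) held 11, its partner kinase Cdk6 10, Ccnd2 9 and Ccnd1 7. Among stem and progenitor genes Flt3 and Meis1 held 7 each and Cd34 and Cd93 6 each, while Ly6a, Procr and Tek had none. Fli1 led the megakaryocyte list with 10, Cx3cr1 the monocyte list with 5, Bcl11a the erythroid list with 8 and Itgam the neutrophil list with 3, and the globin genes had none. Of the interferon list Ifnar1 and Ifnar2, the receptor chains, held 7 and 5, and Mx1, Ifit1, Ifit3 and Isg15 none. In JAK-STAT and FLT3 signalling the adaptor Grb2 held 6 and Jak1, Stat5b and Cish 5 each. Fos held 7, Btg2 6, Hsp90aa1 6, Ywhaz 9 and Actb 7. A long gene or gene-poor surroundings can collect more regions.

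By number, Gse1 had most constitutive regions, 29 of its 100 regions, followed by Zmiz1 (21 of 64), Pde4d (18 of 81), Cmip (17 of 45), Prkce (17 of 56) and the BAF subunit gene Arid1b (17 of 65). Mbp, Ptpre, Wwox, Maml3 and Etv6 had 15 each. These are long genes, of 111 kb (Mbp) to 1302 kb (Pde4d), and their constitutive shares, from 22.2% (Pde4d) to 37.8% (Cmip) beside 15 of 75 at Etv6, lie on both sides of 25.3% for all regions. The densest 50-kb windows were in histone gene clusters on chromosome 13, with 17 regions among H4c8, H3c8, H2bc9 and their neighbours, 13 in a window at Prss16 and H2ac12, and 12 at H2bc13 and H2ac13, a number that windows outside the histone genes also reached. Replication-dependent histone genes are near-identical copies, and no source used here states how reads with several origins were treated. Neighbouring constitutive regions lay a median of 22350 bp apart, against 8850 bp for the more numerous regions of 1 to 7 lists.

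Covered width varied by a median of 21.7% (coefficient of variation over the 8 libraries), 20.4% at gene starts and 22.2% elsewhere. Among regions of at least 500 bp, the steadiest had no protein-coding or listed gene within 100 kb (chr2:98666121-98667443, 1295 to 1323 bp, coefficient 0.730%). No list of artefact regions was applied, so whether this region is an artefact of mapping was not tested. Gm20783, Tfap4, Runx1 and Slc3a2 came next; the Runx1 region, at chr16:92696535-92699078 over another start than the one printed above, had 2474 and 2425 bp in WT, 2443 and 2426 bp in Npm1c, 2413 and 2447 bp in Flt3-ITD and 2515 and 2525 bp in DM. Because the typical region narrowed, this flat region still reads as 0.27 wider on the scaled log2 axis (limma adjusted p = 0.00638). The most variable were in Plcb4, Ikzf1, H2-Aa, Senp6 and near Pim1. The Ikzf1 region, inside the gene of the lymphoid factor Ikaros, had 881 and 726 bp in WT, 1870 and 1961 bp in Npm1c, 219 and 276 bp in Flt3-ITD, and 268 and 277 bp in DM (interaction -1.21 ± 0.11, limma adjusted p = 0.00128).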

How the data were processed

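ATAC-seq reads were aligned with Bowtie2 and peaks called with MACS2 on mm10, per the submitters' processing notes; versions, thresholds and the handling of duplicates and of the Tn5 shift are not given in the sources used here, so their effect on peak width is unknown. The lists the authors deposited, 1 per library, give 3 columns per peak (chromosome, start, end) and no score, and every peak is at least 200 bp wide. Groups and replicate numbers come from the sample titles. Peaks of chromosomes 1 to 19 and X were merged at 1 shared bp, and covered bp per region and library were summed. No list of artefact regions was applied. Coordinates count from 1. Start windows (250 bases before, 50 after) come from RefSeq, GRCm38.p6, for 26794 genes, not only protein-coding ones. A region was assigned to the gene body holding its midpoint or to the nearest gene end within 100 kb. Only protein-coding genes and the genes of the lists were used for this, so other noncoding genes were not considered.

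Widths were tested with limma 3.58.1 (R 4.3.3) on all 103446 regions, as log2(covered bp / library factor + 100 bp), with terms for each allele and their interaction and Benjamini-Hochberg adjustment over all regions. The fit was tested on simulated data. Library means were compared with exact permutation tests over 70 relabellings, two-sided, adjusted over 14. The members, gene lists (27, with 620 genes), motifs and tests were chosen with earlier results of these data known. Named regions are the 10 widest, the 10 genes with most regions (and ties), up to 10 with the largest change per allele and direction (5 for the interaction), the 5 least and 5 most variable with a mean of at least 500 bp, and, for gene lists, genes with most regions; list examples outside that rule (such as Tal1, Rhag, Klf1, Gp5, Pbx2, Psmc2 and Mpo) were chosen after their values were seen, as were the split into gene starts and elsewhere and the list counts under other scalings. Alternatives were other merges, peak and list cuts, pseudocounts, filters, scalings and single libraries left out. Some members that the rule names are not reported here.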

Additional observations from a re-analysis of the deposited data

Results flagged for a closer look

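For 10 constitutive regions the effect of 1 allele differed with the presence of the other, by the limma interaction term (log2 scale). The term was 2.41 at H1f10, 2.39 at Plppr3, 2.39 at Celsr1, 2.31 at Pknox2 and 2.15 at Batf3. It was -3.24 at Hjurp, -3.04 at Wapl, -2.59 at Smim1, -2.49 at Septin8 and -2.38 at Tbc1d2b. At Hjurp, Wapl, Smim1 and Septin8 both DM libraries were narrower than every other library, and at Tbc1d2b they stood below the Flt3-ITD libraries, which were themselves below WT and Npm1c.

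Peaks outside chromosomes 1 to 19 and X were not used in any comparison. The WT lists held 38 and 29 of them, the Npm1c lists 50 and 56, the Flt3-ITD lists 31 each and the DM lists 27 and 23. Of these, 2 or 3 per library lay on the mitochondrial genome and 3 to 7 on chromosome Y.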

How the results depend on the processing

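The number of constitutive regions stayed within 1.5 times 26169 except where peaks had to cover at least 50% of a region in each library (14849). It ranged from 26304 to 27470 with single libraries left out. The Flt3-ITD width difference kept its sign and its exact permutation p of 0.0286 under other merges, the median and single libraries left out, and ranged from -223.7 to -176.6 bp with single libraries left out; the stricter and the equally long lists (-257 and -265 bp) were cut by peak width, the quantity compared, and are no check of it. The Npm1c difference passed in none of these settings and ranged from -67.5 to 47.5 bp, turning positive without WT replicate 1 (47.5), WT replicate 2 (7.36), DM replicate 1 (17.8) or DM replicate 2 (7.28).

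The count of narrower regions with the Flt3-ITD allele was 10875 with no scaling, and that of wider ones 1198 with no scaling and from 3485 (without DM replicate 2) to 5596 with single libraries left out. For the Npm1c allele, wider regions numbered 1033 with no scaling and from 1339 to 3098 (without WT replicate 1) with single libraries left out. The regions with an interaction numbered 1936 with no scaling, 1761 without a width trend, and from 1992 to 4542 (without WT replicate 2) with single libraries left out. Only 3232 constitutive regions had their midpoint inside a start window, beside 9125 that overlapped one.

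Same-numbered libraries of different genotypes did not deviate together (correlations between -0.0827 and 0.131 over constitutive regions), so no pairing by number was seen. The check used scaled widths, from which shifts of a whole library are removed. It cannot show whether same-numbered libraries were prepared together. With the replicate block the Flt3-ITD difference of -209.6 bp had an exact permutation p of 0.0556, the smallest that block allows, and the Npm1c difference of -14.97 bp a p of 0.944. Of the 50 named changes, all kept their direction in 15 other settings of the fit and 38 also kept their call. Read depth is unknown, so how far it limits peak width cannot be given.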
